A study of Drosophila ananassae and Drosophila erecta and Drosophila sechellia with 40 samples.

Results

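The genes that make a cell electrically excitable and let it release transmitter were followed through antennal development as a set of 33 genes, chosen by name from 22594 gene names listed in all 4 stage tables. The set holds 1 neuronal RNA-binding protein gene, 1 cytoskeletal gene, 9 genes of vesicle fusion, 4 of the active zone, 3 of vesicle recycling, 2 of the sodium channel, 7 of potassium channels, 1 pacemaker channel, 2 of transmitter loading and reception and 3 of ion pumps and exchangers. RNA-seq libraries came from wild-type stocks of 5 fruit fly species, namely D. sechellia and D. erecta, which feed and breed on particular host plants, as well as D. simulans, D. ananassae and D. virilis. Each species was sampled as antennal discs of larvae in their last instar (3L), as antennal discs at 8 hours (p8) and antennae at 40 hours after puparium formation (p40), and as adult antennae of both sexes, 7 to 10 days after eclosion (AA). Pupae of D. virilis, which develop more slowly, were taken at 10 and 48 hours. There were 2 libraries per species and stage, 40 in all, from pooled tissue of about 70 discs or pupal antennae or 300 adult antennae. Mean values of D. melanogaster were also listed, without libraries among these 40, and they are given as the authors' means with no spread and no test.

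In insect neurons the sodium channel para carries the action potential, and potassium channels of the Shaker, Shab, Shaw, Shal, eag and slo families repolarise the membrane and set firing patterns. At the axon terminal, the protein scaffold of the active zone holds calcium channels beside docked vesicles, SNARE proteins fuse the vesicles with the membrane, and dynamin and the stoned proteins take the membrane back. In the fly antenna, sensory neurons are born in early pupal life, send axons to the brain in mid pupal life and begin to express most odorant receptors in late pupal life, so the stages sampled span the time from precursors to working neurons. The antenna holds the cell bodies and dendrites of these neurons, while their synapses onto partner neurons lie in the brain.

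Values are scaled counts, the authors' DESeq2-normalized read counts set on a common scale by 1 factor per stage, and they are not divided by transcript length, so levels are not compared between genes. The reads behind each listed mean were worked back to its pair of libraries, and values of a pair of libraries are given with the deeper library, the one with the larger size factor, named before the shallower one. Tests were made with limma on log2(scaled count + 1), and a gene was said to rise or fall where the Benjamini-Hochberg adjusted p over all genes tested was under 0.05 and the change was at least 2-fold. Log2 changes are given with their standard errors on that scale, which understates changes of genes near 0. In whole antennae, more neurons and more RNA per neuron cannot be told apart.

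Some libraries stood apart from the others. At AA, the 10 photoreceptor marker genes summed to 34400 scaled counts in the shallower D. sechellia library, against 3260 in the deeper one and 263 to 8000 in the 8 libraries of the other species, and the opsin gene ninaE stood at 20000 and 156 in the shallower and deeper D. sechellia libraries. The genes of the set differed little between these D. sechellia libraries, with a median log2 difference of -0.15 over 29 genes and 0 beyond 2-fold. At p8, the shallower D. ananassae library was higher than the deeper one in 23 of 26 genes of the set, with a median log2 difference of 1.12 and 14 genes beyond 2-fold, and nompA, a gene of sensory support cells, had 2490.0 and 45.0 scaled counts in the shallower and deeper library. The 3L pair of D. erecta had 8 of 22 genes beyond 2-fold and 3 of 22 higher in the shallower library. The median log2 difference there was -0.27. At AA, all 31 genes compared were lower in the shallower D. virilis library, with a median log2 difference of -0.53. In D. simulans, 2 of 16 genes of the set at 3L and 4 of 19 at p8 were higher in the shallower library, with median log2 differences of -0.50 and -0.42, and in D. ananassae at p40 27 of 31 were higher there, with a median of 0.46 and 5 genes beyond 2-fold. At 3L the 6 fat body marker genes summed to 35300 and 7360 in the deeper and shallower D. ananassae libraries, 12500 and 30800 in those of D. simulans and 1760 and 7540 in those of D. sechellia. In D. ananassae and D. simulans 1 of the 6 was not resolved at 3L and is not in these sums. The 9 muscle marker genes summed to 58000 to 65200 in D. sechellia and 39400 to 42400 in D. erecta at p40, against 21800 to 30600 in D. simulans, 12600 to 26300 in D. ananassae and 3700 to 8040 in D. virilis.

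All 33 names were listed in all 4 tables, and all had values in D. melanogaster. A gene listed at 0 at every stage of a species was left out of that species, because a 0 may stand for a missing ortholog as well as for a silent gene. This left 30 genes for D. sechellia, 31 for D. erecta, 25 for D. simulans, 31 for D. ananassae and 32 for D. virilis. Syx1A, Snap25, Syn, brp, cac, para, VAChT and nrv3 were listed at 0 in D. simulans. Syx1A was listed at 0 also in D. sechellia, D. erecta and D. virilis, Snap25 in D. sechellia and D. ananassae, and VAChT in D. sechellia, D. erecta and D. ananassae. The remaining 25 genes had values in all 5 species. As a check of the tissue, Ir25a, a co-receptor of olfactory neurons, stood at 50.0 to 2510.0 scaled counts at p40 and 2900.0 to 7130.0 in AA, against 1.07 to 48.7 at 3L over the 5 species means. The 11 olfactory neuron markers, Ir25a among them, summed to 17.8 to 418 over the 3L libraries, 508 to 3700 at p40 and 23000 to 37300 in AA. Of the 11, between 1 and 3 were at 0 in a p40 library, and 1 was not resolved in each AA library.

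The set rose through development, with its main step between p8 and p40. Antennal discs were sampled at 3L and p8, and antennae at p40 and AA. The change of tissue between p8 and p40 cannot be told apart from the change of stage. Averaged over the 5 species, 15 of 24 genes tested rose between 3L and p8 (all genes tested: 20.2%), 22 of 25 between p8 and p40 (all genes: 23.5%), and 14 of 22 between p40 and AA (all genes: 21.1%). None of them fell at these steps, where 3.79%, 11.2% and 19.9% of all genes fell. The median log2 change of the set was 1.46, 3.17 and 1.29 at the 3 steps, while the median of all genes was 0.07, 0.17 and 0.07. Markers of olfactory support cells, muscle and glia were also higher at p40 than at p8, and their part in the rise of the set was not tested. Photoreceptor markers were lower at p40 without overlap in all species but D. ananassae, where the libraries overlapped. Fat body markers were lower at p40 without overlap in all species but D. erecta, where they were higher, and blood cell markers differed in direction among species. The 6 markers of olfactory support cells, of which Obp83b was at 0 in D. virilis, summed to 17300 to 23300 over the p40 libraries, against 69.4 to 2610 over the p8 libraries. The 9 muscle markers, of which sls was at 0 in D. simulans and D. ananassae, summed to 58000 to 65200 in D. sechellia and 39400 to 42400 in D. erecta at p40, against 20000 to 21300 and 8560 to 8960 at p8, and they were higher at p40 without overlap in the other 3 species too. The 10 glia markers, of which 0 to 3 were at 0 in a library, summed to 18300 to 19000 in D. erecta and 18100 to 18300 in D. virilis at p40, against 10200 to 10500 and 8050 to 8720 at p8. Scaled by the total of each column instead, log2 changes of the first step were 0.52 lower on average over the species, and 11 of 24 genes rose there. In each species the step from p8 to p40 was the largest of the 3 for most of the set, namely for 25 of 30 genes in D. sechellia, 26 of 31 in D. erecta, 21 of 25 in D. simulans, 20 of 31 in D. ananassae and 19 of 32 in D. virilis. In the D. melanogaster means it was the largest for 21 of 33 genes. Only the genes with values in the libraries of all 5 species entered the averaged tests. brp, cac, para, Syn, nrv3, Snap25, Syx1A and VAChT were listed at 0 in at least 1 species and are described by species. Atpalpha was not resolved in every species at 3L and AA, and is missing from the averaged first and last steps. futsch and Ih were not resolved in AA of D. simulans and are missing from the averaged last step. Values that were not resolved were high ones.

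**Figure D1:**
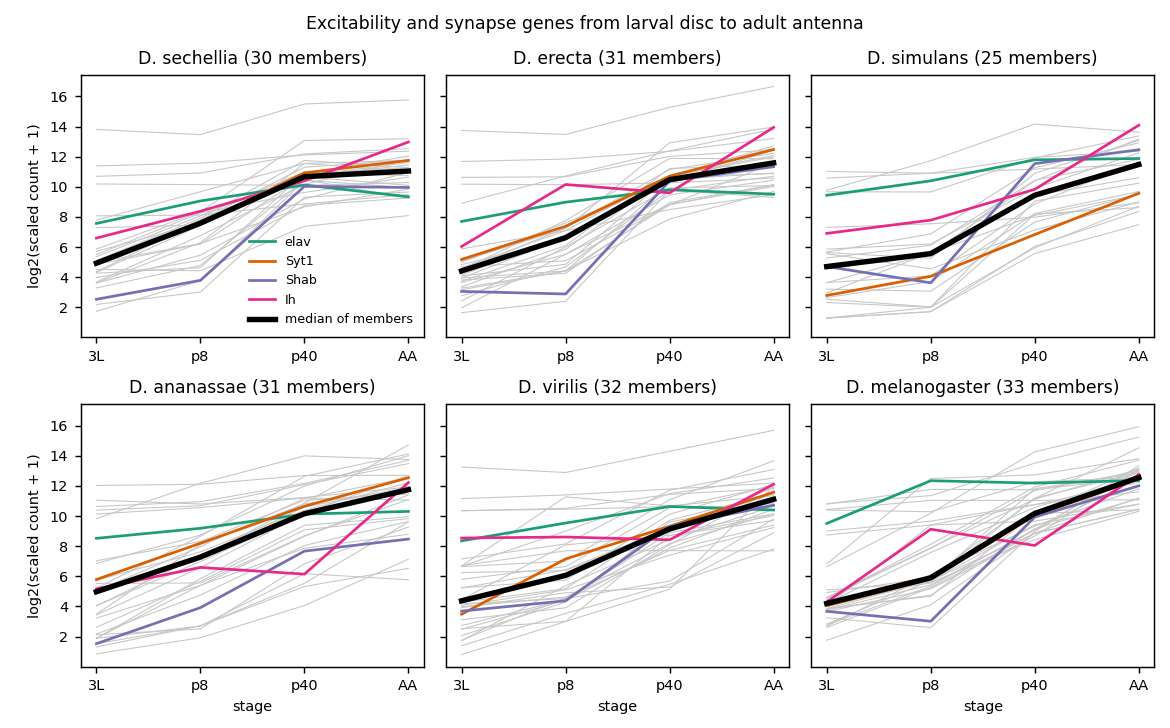
Mean level of each gene of the set at 3L, p8, p40 and AA in each species, as log2(scaled count + 1); grey lines are single genes, coloured lines are elav, Syt1, Shab and Ih, and the black line is the median of the genes measured in that species. The black line climbs most between p8 and p40. elav climbs until p40, or until p8 in D. melanogaster, and then levels off. Shab climbs at p40. Ih has its steepest climb between p40 and AA in each of these panels but that of D. melanogaster. There its climb between 3L and p8 is as steep.

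elav, which encodes an RNA-binding protein found in nearly all fly neurons, rose from 3L to p40 and then levelled off. In D. sechellia, elav had 187 and 192 at 3L, 558 and 509 at p8, 1163 and 1061 at p40 and 694 and 601 in AA. In D. erecta, elav had 208 and 207 at 3L, 525 and 485 at p8, 958 and 833 at p40 and 724 and 732 in AA. In both specialists the adult libraries lay below the p40 libraries without overlap. In D. simulans, elav had 969 and 415 at 3L, 1460.1 and 1234 at p8, 3485 and 3609 at p40 and 3386 and 4134 in AA. In D. ananassae, elav had 351 and 381 at 3L, 516 and 646 at p8, 1063 and 1174 at p40 and 1334 and 1193 in AA, and in D. virilis 299.7 and 351 at 3L, 709 and 771 at p8, 1506 and 1661 at p40 and 1422 and 1272 in AA. Over the 5 species elav rose by 1.14 ± 0.10 log2 units between 3L and p8 and by 1.07 ± 0.10 between p8 and p40 (limma, adjusted p = 1.7e-10 and 3.3e-10), and its log2 change of -0.21 ± 0.10 between p40 and AA was under 2-fold (adjusted p = 0.0469). The D. melanogaster means of elav were 726 at 3L, then 5190.5 at p8, 4652 at p40 and 5247 in AA, at their adult level by p8.

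futsch encodes a microtubule-associated protein of axons and dendrites, and it too rose from 3L to p40. It rose by 2.07 ± 0.10 log2 units between 3L and p8 and by 2.06 ± 0.10 between p8 and p40 (adjusted p = 1.4e-14 and 1e-14). In D. erecta, futsch had 528 and 429.5 at 3L, 1805 and 1569.5 at p8, 5364 and 5348 at p40 and 15346 and 13779 in AA, with a rise of 1.44 ± 0.23 log2 units at the last step (adjusted p = 8.3e-06). In D. virilis, futsch had 7746 and 4031 in AA, against 2945 and 2781 at p40, a log2 change of 0.97 ± 0.23 that was just under 2-fold (adjusted p = 0.000797). The difference between species at this step was not tested. In D. ananassae, futsch had 804 and 1011 at 3L, 3959.8 and 5257 at p8, 14231 and 18292 at p40 and 13677 and 13816 in AA, with both adult libraries below both p40 libraries. In D. simulans the means were 873 at 3L, then 3400.1 at p8, 18322 at p40 and 12609 in AA, and the adult libraries were not resolved.

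Among the 6 vesicle fusion genes tested in all 5 species, nSyb, Syt1, cpx and Rab3 rose at all 3 steps, while Rop rose at 1 step and Csp at none. nSyb, the SNARE protein of synaptic vesicles, rose by 1.43 ± 0.28, 4.07 ± 0.28 and 1.58 ± 0.28 log2 units (adjusted p = 7.9e-05, 2.1e-12 and 1.6e-05). In D. sechellia, nSyb had 32.6 and 24.1 at 3L, 213 and 229 at p8, 1861 and 1559.5 at p40 and 2971 and 3267 in AA. In D. erecta, nSyb had 37 and 10.4 at 3L, 147 and 125 at p8, 1787 and 1663 at p40 and 4271 and 4358 in AA. In these species each stage stood clear of the one before it. In D. simulans, nSyb had 67.7 and 29.7 at 3L, 68.8 and 5.64 at p8, 1912 and 1897 at p40 and 8189 and 9156 in AA, so that the p8 libraries lay on either side of the 3L libraries. In D. ananassae, nSyb had 127 and 103 at 3L, 254 and 595 at p8, 3412 and 4699 at p40 and 16589 and 16248 in AA, and in D. virilis 50.7 and 58.6 at 3L, 96.1 and 102 at p8, 1612 and 1376 at p40 and 4194 and 4022 in AA. The D. melanogaster means were 22.4 at 3L, then 279 at p8, 3882 at p40 and 13354 in AA.

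Syt1, the calcium sensor of fast release, rose by 2.49 ± 0.16, 2.83 ± 0.16 and 1.90 ± 0.16 log2 units (adjusted p = 1.1e-12, 5.8e-14 and 7.9e-11). In D. sechellia, Syt1 had 36.1 and 19.3 at 3L, 188 and 194 at p8, 2116 and 1772 at p40 and 3465 and 3424 in AA. In D. erecta, Syt1 had 49.8 and 20.8 at 3L, 185 and 146 at p8, 1858 and 1488 at p40 and 5852 and 5504 in AA. The adult level in D. sechellia stood nearer to its p40 level than in D. erecta. In D. simulans, Syt1 had 3.83 and 8.03 at 3L, 18.5 and 12.9 at p8, 90.5 and 135 at p40 and 718 and 806 in AA. In D. ananassae, Syt1 had 46.2 and 62.2 at 3L, 216 and 367 at p8, 1384 and 1819 at p40 and 6147 and 5766 in AA, and in D. virilis 8.95 and 11.4 at 3L, 179 and 104 at p8, 639.6 and 634 at p40 and 3569 and 2523 in AA. In D. virilis it had the largest first step of the 5 species, and the difference of this step from the mean of the other 4 species was 1.43 ± 0.40 log2 units (adjusted p = 0.0104).

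cpx encodes complexin, a clamp and helper of SNARE complexes, and Rab3 encodes a small GTPase of synaptic vesicles. cpx rose by 1.33 ± 0.20, 4.06 ± 0.20 and 2.21 ± 0.20 log2 units and had the largest last step among the vesicle genes (adjusted p = 4e-10). In D. virilis, cpx had 71.6 and 78.1 at 3L, 80.7 and 84.1 at p8, 528 and 524 at p40 and 4476 and 3149 in AA, level over the first step. In D. erecta, cpx had 15.7 and 2.97 at 3L, 52.7 and 61.2 at p8, 1916 and 1521 at p40 and 6386 and 5744 in AA. Rab3 rose by 1.49 ± 0.18, 3.17 ± 0.18 and 1.82 ± 0.18 log2 units. In each of the 5 species Rab3 rose at the last step, by 1.18 for D. sechellia, 1.18 for D. erecta, 2.35 for D. simulans, 1.84 for D. ananassae and 2.57 for D. virilis.

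Csp, a chaperone of vesicle proteins that other secretory cells also use, was nearly level. In D. sechellia, Csp had 1151 and 1178 at 3L, 1117 and 1146 at p8, 1109 and 1079 at p40 and 1275 and 1215 in AA, and in D. virilis 1289.7 and 1323 at 3L, 1386 and 1408 at p8, 1544 and 1602 at p40 and 1683 and 1489 in AA. Its log2 changes over the 5 species were -0.07 ± 0.04, 0.19 ± 0.04 and 0.30 ± 0.04, none at 2-fold (limma, adjusted p for the last 2 steps = 6.9e-05 and 1.1e-07). Rop, the Sec1/Munc18 protein that binds syntaxin, changed by 0.16 ± 0.04, 1.04 ± 0.04 and 0.32 ± 0.04 log2 units and rose at the middle step alone. In D. erecta, Rop had 1582 and 1574 at 3L, 1706 and 1539 at p8, 4170.2 and 4126 at p40 and 5700.5 and 5509 in AA, and the p40 libraries stood clear of the p8 libraries.

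Synapsin (Syn), which tethers vesicles into clusters, had a time course of its own in D. virilis. There Syn had 89.5 and 114 at 3L, 2648 and 2294 at p8, 1634 and 1624 at p40 and 3075 and 2125 in AA, rising by 4.60 ± 0.33 log2 units at the first step (adjusted p = 6.1e-10) and changing by -0.60 ± 0.33 at the second (adjusted p = 0.135). In D. sechellia, Syn had 8.16 and 14.5 at 3L, 93.9 and 61.7 at p8, 3130.4 and 2878 at p40 and 1999 and 2094 in AA, and in D. erecta 17.1 and 7.43 at 3L, 75.8 and 59 at p8, 2644 and 2126 at p40 and 2876 and 2657 in AA. In these species the main rise came between p8 and p40, by 5.28 and 5.13 log2 units. In D. ananassae, Syn had 128 and 131 at 3L, 209 and 421 at p8, 1829 and 2396 at p40 and 2962 and 2649.9 in AA. The D. melanogaster means were 13.5 at 3L, then 51.1 at p8, 3594 at p40 and 7402 in AA, with the main rise at p40. Because Syn was not tested in all 5 species, the difference of D. virilis from the others was not tested.

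The SNARE partners of nSyb were measured in few species. Syx1A, the syntaxin of the target membrane, had 1448 and 1720.3 at 3L, 1829 and 2119.9 at p8, 4007 and 5179 at p40 and 12866 and 13547 in AA in D. ananassae, already high in the larval disc, and it rose at the last 2 steps by 1.21 ± 0.15 and 1.53 ± 0.15 log2 units (adjusted p = 0.0003 and 4.1e-05). Its means in D. melanogaster were 511 at 3L, then 807 at p8, 1733 at p40 and 3121 in AA. Snap25 had 4.27 and 4.46 at 3L, 50.6 and 76.5 at p8, 965 and 979 at p40 and 1172 and 992 in AA in D. erecta and 14.9 and 14.6 at 3L, 24 and 23.3 at p8, 315 and 259 at p40 and 1142 and 1127 in AA in D. virilis. Snap25 reached its adult level by p40 in D. erecta, where its last step was 0.15 ± 0.21 log2 units (adjusted p = 0.563), and rose by 1.98 ± 0.21 at that step in D. virilis (adjusted p = 3.8e-06).

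In the species with libraries, the active zone genes that had values were far lower in the larval disc than at p40. brp encodes the scaffold protein Bruchpilot. In D. sechellia, brp had 52.5 and 27.7 at 3L, 250.5 and 284 at p8, 2266 and 1804 at p40 and 1832 and 1566 in AA. In D. erecta, brp had 49.8 and 11.9 at 3L, 192 and 197 at p8, 1551 and 1301 at p40 and 1953 and 1912 in AA. The adult libraries of D. erecta were above its p40 libraries, and those of D. sechellia overlapped with its p40 libraries. In D. ananassae, brp had 4.87 and 2.14 at 3L, 19.8 and 32.1 at p8, 199 and 327 at p40 and 860.0 and 726 in AA, and in D. virilis 1.49 and 4.88 at 3L, 13.7 and 23.3 at p8, 868 and 691 at p40 and 2329.8 and 1417 in AA. brp rose at the first step by 2.77, 2.93, 2.61 and 2.30 log2 units in D. sechellia, D. erecta, D. ananassae and D. virilis, and at the last step it rose in D. ananassae by 1.63 ± 0.50 and in D. virilis by 1.23 ± 0.50 (adjusted p = 0.00796 and 0.04).

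Rim organises vesicles and calcium channels at the active zone, and unc-13 primes vesicles for fusion. Rim rose by 1.93 ± 0.20, 3.74 ± 0.20 and 1.27 ± 0.20 log2 units over the 5 species. In D. sechellia, Rim had 35 and 32.5 at 3L, 237 and 240.3 at p8, 3588 and 3303 at p40 and 2719 and 2216 in AA, and its adult libraries were below its p40 libraries. In D. virilis, Rim had 29.8 and 43.1 at 3L, 82.4 and 87.7 at p8, 550.4 and 652 at p40 and 3580.5 and 2142 in AA, and in D. simulans 8.94 and 1.61 at 3L, 17 and 7.25 at p8, 252 and 346 at p40 and 649 and 1001 in AA. unc-13 rose by 2.18 ± 0.13 and 3.45 ± 0.13 log2 units at the first 2 steps and changed by 0.76 ± 0.13 at the last, under 2-fold (adjusted p = 9.3e-06). In D. erecta, unc-13 had 31.3 and 11.9 at 3L, 189.6 and 243 at p8, 4037 and 3519 at p40 and 3747 and 3707 in AA, level from p40 on, while in D. virilis it had 140.1 and 142 at 3L, 278 and 288 at p8, 3230.3 and 3469.7 at p40 and 10095 and 7301 in AA. The D. melanogaster means of unc-13 were 1768 at 3L, then 3486 at p8, 3417 at p40 and 5990 in AA, level between p8 and p40.

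cac, the calcium channel of the active zone, could not be judged in D. virilis. There cac had 19.4 and 22.8 at 3L, 534 and 7.16 at p8, 20.7 and 822 at p40 and 1652 and 14.2 in AA, so that the deeper and the shallower library traded places. For genes with several orthologous transcripts the authors kept the highest one, and whether this bears on cac was not tested. The spread of these libraries entered the pooled fit, in which no step of cac passed in any species. In a fit of D. sechellia alone, where cac had 162 and 149 at 3L, 155 and 194 at p8, 1733 and 1507 at p40 and 1246 and 943 in AA, it rose by 3.21 ± 0.17 log2 units between p8 and p40 (adjusted p = 6.1e-06). In a fit of D. erecta alone, where cac had 24.2 and 8.92 at 3L, 103 and 116 at p8, 1695 and 1513 at p40 and 1926 and 1839 in AA, it rose by 2.80 ± 0.37 and 3.86 ± 0.37 at the first 2 steps (adjusted p = 0.00041 and 3.7e-05). D. ananassae had few reads of cac, with 1.62 and 2.14 at 3L, 5.41 and 5.67 at p8, 26.4 and 51.6 at p40 and 90.7 and 91.7 in AA, and alone it gave a rise of 2.54 ± 0.48 between p8 and p40 (adjusted p = 0.00619).

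**Figure D2:**
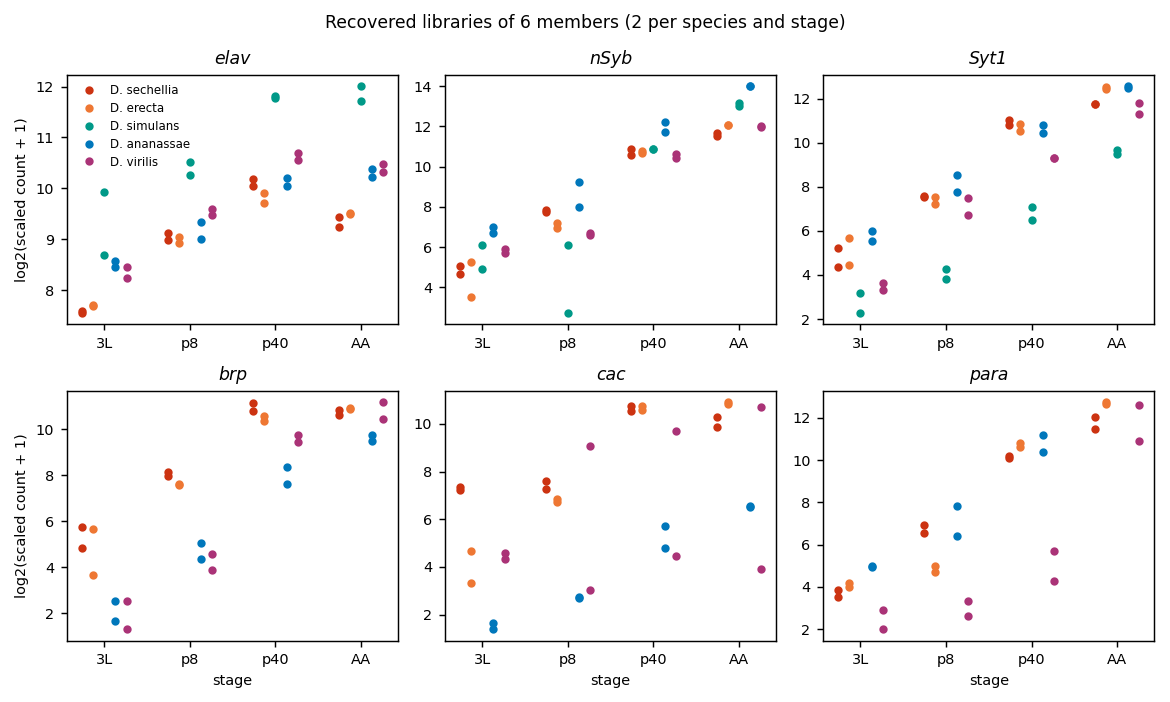
Level of 6 genes of the set in each recovered library, as log2(scaled count + 1), by stage and species (2 points per species and stage; brp, cac and para were listed at 0 in D. simulans, and para was not resolved in AA of D. ananassae). The points of a pair lie close together for most genes, and the pairs of cac in D. virilis, of nSyb at p8 in D. simulans (68.8 and 5.64) and of para in AA of D. virilis (6336 and 1921) lie far apart.

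Of the 3 genes of membrane retrieval, shi moved little and the stoned pair rose. shi encodes dynamin, which cuts endocytic vesicles from the membrane in all cells. In D. sechellia, shi had 2660.5 and 2704 at 3L, 2933 and 3146 at p8, 4451 and 4411 at p40 and 5425 and 5132 in AA, and its log2 changes over the 5 species were 0.25 ± 0.07, 0.49 ± 0.07 and 0.47 ± 0.07, all under 2-fold. Of the single species, D. simulans alone showed a rise of shi past the call rule, at the last step (1.01 ± 0.16, adjusted p = 5.1e-06). The stoned proteins, which help to retrieve synaptotagmin, are made from 1 transcript with 2 reading frames, listed as stnA and stnB, and reads of this transcript are not independent for both. stnA rose by 2.17 ± 0.21, 3.95 ± 0.21 and 1.17 ± 0.21 log2 units and stnB by 2.31 ± 0.25, 3.91 ± 0.25 and 1.31 ± 0.25. In D. sechellia, stnB had 22.2 and 16.9 at 3L, 225 and 218 at p8, 2693 and 2345 at p40 and 3642 and 3373 in AA, and in D. virilis 49.2 and 24.4 at 3L, 61.8 and 42.9 at p8, 1175 and 1046 at p40 and 4838 and 3824 in AA. stnB rose at the first step in D. sechellia by 3.45 ± 0.56 log2 units and in D. virilis it changed by 0.56 ± 0.56 (adjusted p = 2.2e-05 and 0.474). The D. virilis step differed from the mean of the other 4 species by -2.19 ± 0.62 log2 units (adjusted p = 0.0111).

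The sodium channel gene para and its auxiliary subunit gene tipE had different courses. tipE had the largest first step of the genes tested in all 5 species, 3.47 ± 0.14 log2 units, followed by 2.73 ± 0.14 and 1.31 ± 0.14 (adjusted p = 7.2e-17, 5.5e-15 and 4.2e-09). In D. ananassae, tipE had 9.73 and 10.7 at 3L, 189 and 361 at p8, 1524 and 2053 at p40 and 3547 and 3322 in AA, and in D. sechellia 43.1 and 45.8 at 3L, 333 and 278 at p8, 801 and 777 at p40 and 1575 and 1607 in AA. At the first step tipE rose in each of the 5 species, by 2.75 for D. sechellia, 3.54 for D. erecta, 2.83 for D. simulans, 4.55 for D. ananassae and 3.67 for D. virilis.

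In D. virilis para rose mainly after p40. There para had 2.98 and 6.51 at 3L, 5.15 and 8.95 at p8, 50.4 and 18.1 at p40 and 6336 and 1921 in AA, a rise of 6.80 ± 0.52 log2 units at the last step (adjusted p = 1.1e-09), with adult libraries that lay more than 2-fold apart. In D. sechellia, para had 10.5 and 13.3 at 3L, 93.9 and 121 at p8, 1180.3 and 1103 at p40 and 4285 and 2849.7 in AA, and in D. erecta 17.1 and 14.9 at 3L, 25.3 and 30.6 at p8, 1771 and 1553 at p40 and 6905 and 6576 in AA. There the last step was 1.61 ± 0.52 and 2.02 ± 0.52 log2 units (adjusted p = 0.0113 and 0.00246). In D. ananassae, para had 30.8 and 30.0 at 3L, 82.9 and 225 at p8 and 1359 and 2348 at p40, and its adult mean was 27053. The D. melanogaster means of para were 29.3 at 3L, then 58.8 at p8, 2292 at p40 and 23535 in AA.

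Most of the potassium channel genes had few reads up to p8 and rose steeply by p40. Shab, a delayed rectifier, had the largest step between p8 and p40 of the genes tested in all 5 species, 6.29 ± 0.33 log2 units (adjusted p = 9.4e-15), after 0.49 ± 0.33 at the first step. In D. simulans, Shab had 29.4 and 20.9 at 3L, 16.3 and 6.44 at p8, 2885 and 3064 at p40 and 5664 and 5621 in AA. In D. erecta, Shab had 4.27 and 10.4 at 3L, 8.43 and 4.37 at p8, 1526 and 1156 at p40 and 2856 and 2302 in AA, and in D. sechellia 1.17 and 8.43 at 3L, 5.87 and 19.8 at p8, 1168 and 924 at p40 and 1043 and 943 in AA. The p8 libraries lay below the 3L libraries in D. simulans and overlapped with them in D. erecta and D. sechellia, and all p40 libraries stood far above both. Shaw, a further potassium channel gene, rose by 5.01 ± 0.37 log2 units between p8 and p40 and changed by 0.13 ± 0.37 at the last step (adjusted p = 9.5e-12 and 0.751). In D. sechellia, Shaw had 15.2 and 2.41 at 3L, 17.6 and 35.3 at p8, 1557 and 1286 at p40 and 634 and 571 in AA, with both adult libraries under both p40 libraries.

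slo encodes the calcium-activated potassium channel of large conductance. It rose by 4.95 ± 0.21 log2 units between p8 and p40 and by 2.45 ± 0.21 between p40 and AA (adjusted p = 3.5e-16 and 1.6e-10), and it changed by 0.54 ± 0.21 at the first step. In D. sechellia, slo had 25.6 and 10.8 at 3L, 23.5 and 24.3 at p8, 2001 and 1846 at p40 and 4581 and 3822 in AA. In D. virilis, slo had 10.4 and 4.88 at 3L, 13.7 and 14.3 at p8, 360.3 and 187 at p40 and 4416 and 2368 in AA. The mean at p40 was 45.8% of the adult mean in D. sechellia and 8.06% in D. virilis. Sh, the A-type channel after which the family is named, rose by 3.63 ± 0.28 and 1.11 ± 0.28 log2 units at the last 2 steps. In D. erecta, Sh had 14.2 and 11.9 at 3L, 21.1 and 15.3 at p8, 570.0 and 420.1 at p40 and 1197 and 1036 in AA, and in D. ananassae 3.24 and 2.14 at 3L, 7.21 and 3.78 at p8, 16.8 and 126 at p40 and 61.9 and 45.1 in AA. qvr, a membrane-tethered regulator of Sh, rose at all 3 steps, by 1.71 ± 0.24, 3.61 ± 0.24 and 1.94 ± 0.24 log2 units.

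eag, which encodes a channel of the ether-a-go-go family, differed in course among species. eag had 2.33 and 4.82 at 3L, 9.78 and 4.41 at p8, 716 and 554 at p40 and 868 and 745 in AA in D. sechellia, a rise of 6.37 ± 0.47 log2 units between p8 and p40. In D. virilis, eag had 11.9 and 16.3 at 3L, 25.8 and 32.2 at p8, 52.2 and 23.6 at p40 and 683 and 264 in AA, with a rise of 3.56 ± 0.47 log2 units at the last step. In D. erecta, eag had 61.2 and 55 at 3L, 164 and 105 at p8, 424 and 295 at p40 and 771 and 646 in AA, already well above 0 in the disc. The step between p8 and p40 differed from the mean of the other 4 species by 4.31 ± 0.53 for D. sechellia, -1.88 ± 0.53 for D. erecta, 1.79 ± 0.53 for D. simulans and -3.30 ± 0.53 for D. virilis (adjusted p = 1.5e-06, 0.0077, 0.0159 and 1.7e-05). Shal, a somatodendritic A-type channel, had 106 and 101 at 3L, 209 and 202 at p8, 193 and 221 at p40 and 261 and 150.0 in AA in D. virilis, and neither step after p8 passed the test. In D. ananassae, Shal had 57.6 and 32.2 at 3L, 25.2 and 67.1 at p8, 337 and 485 at p40 and 2059 and 2296 in AA, and it rose by 3.26 and 2.42 log2 units at the last 2 steps.

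Ih, the hyperpolarization-activated pacemaker channel, had its largest step, by the means, between p40 and AA in all 5 species. In D. erecta, Ih had 59.8 and 69.9 at 3L, 1079.7 and 1196 at p8, 809.9 and 740.1 at p40 and 16032 and 15497 in AA. It rose by 4.11 ± 0.68 log2 units at the first step (adjusted p = 3e-05), changed by -0.55 ± 0.68 at the second and rose by 4.35 ± 0.68 at the last (adjusted p = 7.2e-06). In D. virilis, Ih had 380.2 and 363 at 3L, 385 and 392 at p8, 335 and 348 at p40 and 5307 and 3560.1 in AA, level until p40. In D. sechellia, Ih had 109.6 and 81.9 at 3L, 353 and 311 at p8, 1348 and 1344 at p40 and 8406 and 7689.6 in AA, with a rise at each step. In D. ananassae, Ih had 39.7 and 30.0 at 3L, 107 and 83.1 at p8, 122 and 17.7 at p40 and 8750.0 and 781 in AA, with adult libraries far apart and p40 libraries of which the shallower was below the p8 libraries. The D. simulans means were 119 at 3L, then 220.2 at p8, 912 at p40 and 17421 in AA, and the D. melanogaster means were 18.6 at 3L, then 556 at p8, 263 at p40 and 6929.8 in AA.

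Rdl encodes a GABA-gated chloride channel, and VAChT loads acetylcholine, the transmitter of olfactory sensory neurons, into vesicles. Rdl rose by 1.88 ± 0.26 and 5.59 ± 0.26 log2 units at the first 2 steps, and its change of 0.76 ± 0.26 at the last was under 2-fold (adjusted p = 7.3e-07, 1.4e-15 and 0.0102). In D. erecta, Rdl had 4.27 and 0 at 3L, 4.21 and 4.37 at p8, 976 and 773 at p40 and 1850.4 and 1491 in AA. In D. ananassae, Rdl had 3.24 and 2.14 at 3L, 31.5 and 81.2 at p8, 500.1 and 832 at p40 and 1067 and 914 in AA. At the first step Rdl rose by 3.82 ± 0.58 log2 units in D. ananassae, while in D. erecta its change was 1.20 ± 0.58 (adjusted p = 8.7e-06 and 0.0996). VAChT was measured in D. virilis alone among the species with libraries, where it had 1.49 and 0 at 3L, 8.58 and 5.37 at p8, 400.0 and 429.6 at p40 and 1303 and 778 in AA and rose by 2.31 ± 0.51 and 5.73 ± 0.51 log2 units at the first 2 steps (adjusted p = 0.00797 and 3.2e-05). The D. melanogaster means of VAChT were 23.4 at 3L, then 236 at p8, 2218 at p40 and 8818 in AA.

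The sodium pump restores the gradients that spikes run down. Atpalpha, its catalytic subunit, is used by all cells, and nrv3 encodes a beta subunit found in neurons. Atpalpha rose by 1.77 ± 0.15 log2 units between p8 and p40 (adjusted p = 3.4e-09) and was resolved at 3L and AA only in D. simulans and D. ananassae. In D. ananassae, Atpalpha had 1202 and 1479 at 3L, 1564 and 1719 at p8, 4022 and 4654 at p40 and 11824 and 10998 in AA. nrv3 had 61.8 and 53 at 3L, 313 and 331 at p8, 8627 and 8614 at p40 and 9298 and 9332 in AA in D. sechellia, at its adult level by p40, and 99.9 and 97.6 at 3L, 127 and 129 at p8, 2511 and 1818 at p40 and 13168 and 12754 in AA in D. virilis, where its last step was 2.60 ± 0.42 log2 units (adjusted p = 1.8e-05).

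Nckx30C, a sodium, calcium and potassium exchanger, had the largest last step of the genes tested in all 5 species, 2.96 ± 0.21 log2 units (adjusted p = 1.8e-12). Ih was not resolved in AA of D. simulans and so had no such test. By the means, its last step was larger than that of Nckx30C in each of the 5 species but D. virilis. In D. sechellia, Nckx30C had 15.2 and 7.23 at 3L, 31.3 and 55.1 at p8, 634 and 538 at p40 and 2093 and 1869 in AA. In D. ananassae, Nckx30C had 0.811 and 2.14 at 3L, 3.6 and 7.56 at p8, 29.3 and 61.3 at p40 and 750.1 and 814 in AA, and in D. virilis 17.1 and 17.1 at 3L, 22.3 and 21.5 at p8, 49.5 and 50.8 at p40 and 1279.9 and 509 in AA. It rose at the last step in each of the 5 species, by 1.76 for D. sechellia, 2.79 for D. erecta, 2.12 for D. simulans, 4.17 for D. ananassae and 3.98 for D. virilis.

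Species were then compared by their steps, which compare each gene with itself within a species and so depend less on the gene models of each species than levels do. Between 3L and p8, 18 of 29 genes of the set rose in D. sechellia, where 19.0% of all genes rose and 4.53% fell. In D. erecta 18 of 30 rose (all genes: 19.5% up, 4.82% down), in D. ananassae 19 of 31 (all genes: 18.8% up, 7.06% down), in D. virilis 12 of 31 (all genes: 17.1% up, 4.82% down), and in D. simulans 7 of 25 (all genes: 14.7% up, 6.04% down). No gene of the set fell, but in D. simulans 3 fell and 3 rose when scaled by column totals. The median log2 change was 1.81 for D. sechellia, 1.88 for D. erecta, 1.76 for D. ananassae, 0.996 for D. virilis and 0.40 for D. simulans. Without the shallower p8 library, 12 genes rose in D. ananassae, and in D. simulans 3 rose without its shallower 3L library and 4 without its deeper p8 library.

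Between p8 and p40 the species were alike in count. In D. sechellia 26 of 30 genes of the set rose (all genes: 27.0% up, 13.7% down), in D. erecta 26 of 31 (all genes: 25.2% up, 14.7% down), in D. simulans 23 of 25 (all genes: 23.8% up, 11.5% down), in D. ananassae 25 of 31 (all genes: 20.3% up, 9.56% down) and in D. virilis 24 of 32 (all genes: 18.9% up, 12.4% down). None fell. The median log2 change was 3.31 for D. sechellia, 3.88 for D. erecta, 3.84 for D. simulans, 2.88 for D. ananassae and 2.57 for D. virilis.

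Between p40 and AA the count was lowest for D. sechellia. There 6 of 29 genes of the set rose, near the share of all genes, of which 21.6% rose and 22.8% fell. In D. erecta 12 of 30 rose (all genes: 21.7% up, 18.8% down), in D. simulans 17 of 23 (all genes: 22.8% up, 20.7% down), in D. ananassae 17 of 30 (all genes: 24.3% up, 20.1% down) and in D. virilis 20 of 31 (all genes: 23.3% up, 16.3% down). None fell. The median log2 change was 0.36 for D. sechellia, 1.06 for D. erecta, 1.45 for D. simulans, 1.39 for D. ananassae and 1.74 for D. virilis. The 6 genes that rose in D. sechellia were Ih, Nckx30C, para, Rab3, slo and tipE, and 3 rose without either its shallower p40 library or its shallower adult library.

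**Figure D3:**
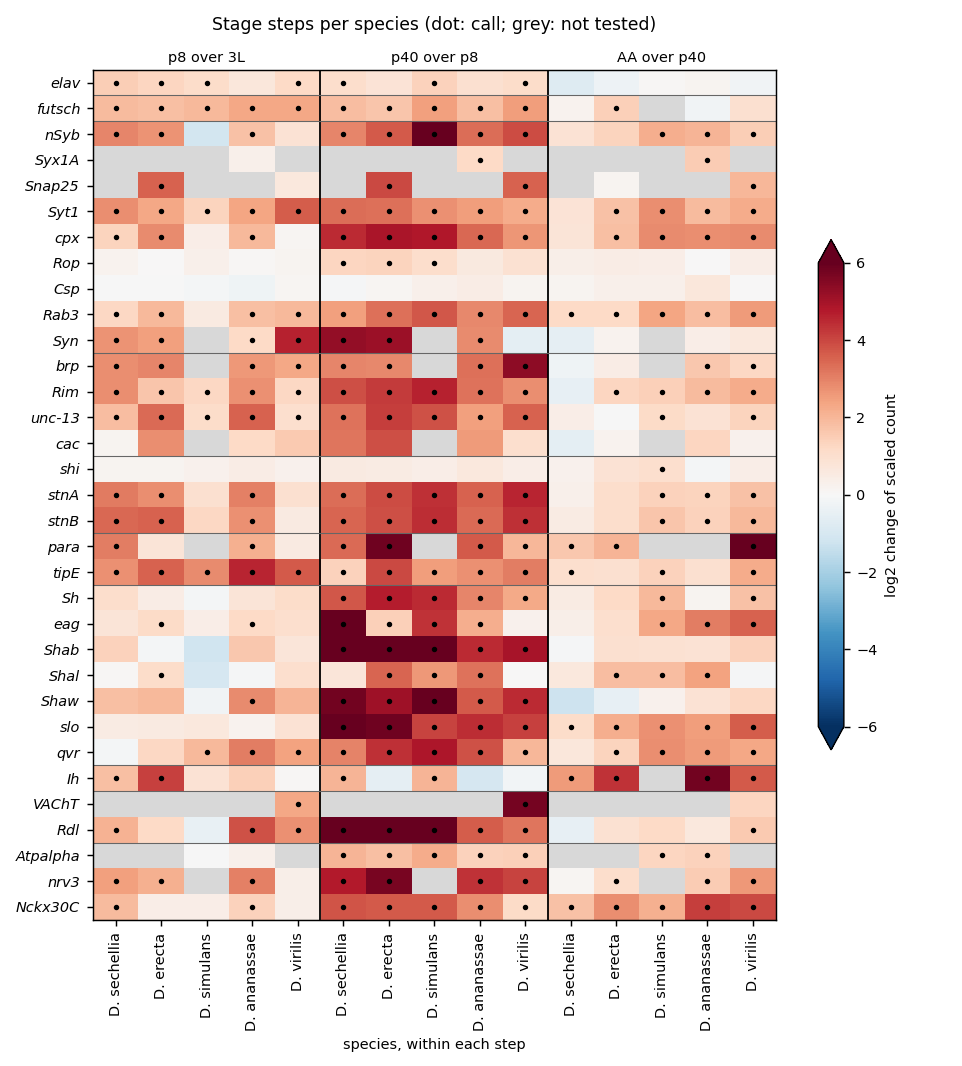
Log2 change of each gene of the set between successive stages in each species, with rows ordered by role and columns by step and species; red is higher at the later stage, blue lower, a dot marks a gene that rose by the call rule, and grey was not tested. Most dots lie in the block from p8 to p40, and the D. sechellia column of the last block holds 6 dots, against 20 in that of D. virilis.

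The difference of D. sechellia at the last step was tested directly against the mean step of the other 4 species. It differed in 7 of 22 genes (all genes: 20.3% in either direction), and in all 7 the D. sechellia rise was the smaller one (all genes with a smaller rise or larger fall: 12.3%). The median difference of the set was -1.07 log2 units, and that of all genes -0.04. Rim differed by -2.20 ± 0.51, eag by -2.13 ± 0.53 and cpx by -1.80 ± 0.51 (adjusted p = 0.00134, 0.00232 and 0.00643). slo differed by -1.66 ± 0.54, qvr by -1.56 ± 0.60, Nckx30C by -1.51 ± 0.52 and Syt1 by -1.34 ± 0.40 (adjusted p = 0.0156, 0.0398, 0.0213 and 0.00959). Of the other genes, Shaw at -1.70 and Rdl at -1.56 did not pass (adjusted p = 0.148 and 0.0564). Without the adult library that held photoreceptor RNA, 4 genes differed, with slo, qvr and Nckx30C past the threshold no longer, and without the deeper p40 library 3 differed. With voom weights 12 differed, and with a pseudocount of 10, 11. Muscle RNA was highest in D. sechellia at p40, as given above, and its part in this difference was not tested.

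Fewer genes differed at this step in the other species. D. erecta differed from the mean of the other 4 in 0 of 22 genes (all genes: 18.6%), D. simulans in 1 (all genes: 13.2%), D. ananassae in 2 (all genes: 23.0%) and D. virilis in 5 (all genes: 30.4%). These 4 counts lay below the shares of all genes. In D. virilis tipE, eag, slo and Nckx30C had larger last steps, by 1.15, 1.87, 1.49 and 1.27 log2 units, and Shal a smaller one, by -1.75. Without the shallower D. virilis p40 library 1 gene differed there, and without its deeper adult library 2. Of the genes of D. ananassae, Shal and Nckx30C with a larger rise, 1 passed without its deeper p40 library or either adult library. The count of D. simulans, which held Syt1 alone, was between 0 and 2, and that of D. erecta was between 0 and 2, when single libraries were left out.

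At the step from p8 to p40 D. virilis had the most genes that differed. It differed from the mean of the other 4 species in 7 of 25 genes (all genes: 25%), each with the smaller rise in D. virilis (all genes: 15.0%). They were eag (-3.30 ± 0.53), Rdl (-2.96 ± 0.65), Shal (-2.52 ± 0.37), Nckx30C (-2.33 ± 0.52), qvr (-1.99 ± 0.60), cpx (-1.75 ± 0.51) and Sh (-1.68 ± 0.69). All but cpx are channels, a channel regulator or an exchanger, as are many of the 25 genes tested, and a difference by kind of gene was not tested. The share of the set was close to that of all genes in either direction. D. sechellia differed in 4 of 25 genes (all genes: 15.7%), D. erecta in 4 (all genes: 17.5%), D. simulans in 3 (all genes: 10.9%) and D. ananassae in 4 (all genes: 14.2%). In D. sechellia eag and slo had the larger rise, by 4.31 and 1.66 log2 units, and tipE and Shal the smaller one, by -1.69 and -1.59. The count of D. simulans was 0 without its shallower p8 library, 5 without the deeper p8 or the shallower p40 library of D. ananassae, and that of D. erecta was 7 without that p8 library. The count of D. ananassae was 2 without its shallower p8 library.

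**Figure D4:**
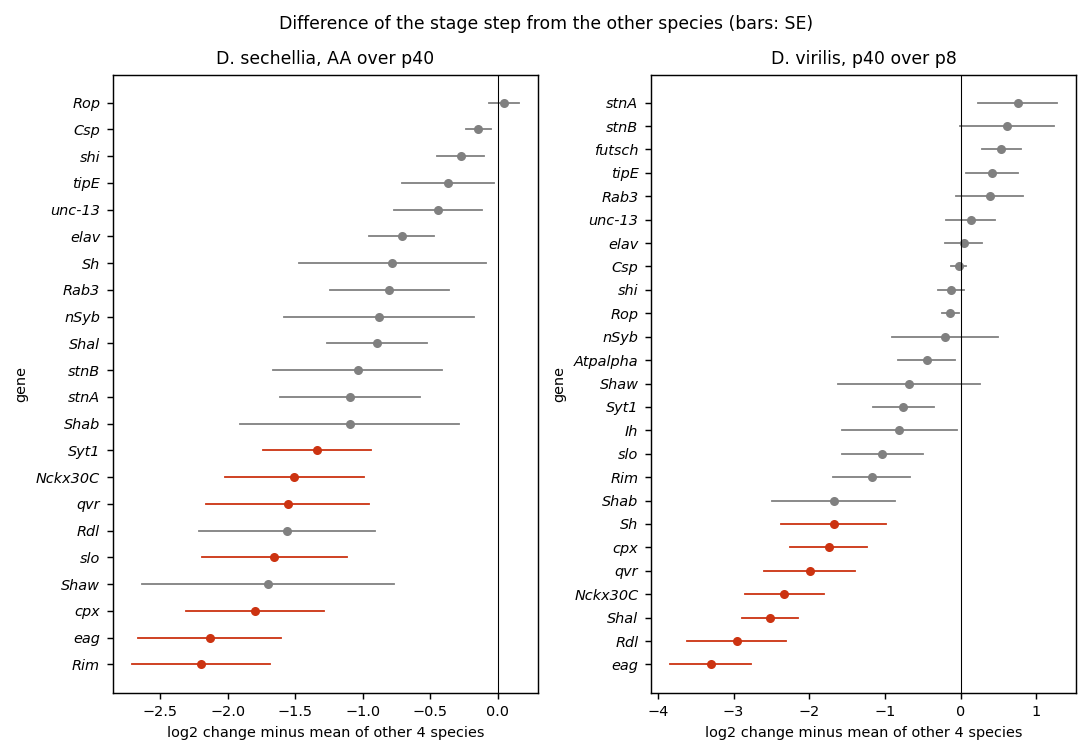
Difference of the log2 step of 1 species from the mean step of the other 4 species, for each gene tested, with bars of 1 standard error; the left panel shows AA over p40 in D. sechellia and the right panel p40 over p8 in D. virilis, and red marks genes past the call rule. Points left of 0 are smaller rises, and the 7 red points in each panel all lie left of 0.

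At the first step D. simulans had the smaller rise in each gene that differed there. It differed from the mean of the other 4 in 6 of 24 genes (all genes: 10.1%, and 6.82% with a smaller rise). They were nSyb (-3.16 ± 0.70), Rdl (-2.92 ± 0.65), Shal (-1.52 ± 0.37), stnA (-1.49 ± 0.52), Syt1 (-1.46 ± 0.40) and unc-13 (-1.36 ± 0.32). In the p8 libraries of D. simulans unc-13 had 47.3 and 47.5, and stnA had 87.3 and 49.9. In D. simulans, 3 genes differed without its deeper 3L library, 3 without its shallower p8 library and 10 without the deeper p8 library of D. ananassae. With voom weights 2 genes differed in D. simulans, 1 in D. virilis and 0 in each of the other species. The libraries of both D. simulans pairs this rests on, at 3L and p8, differed in the set as given above. D. sechellia differed in 1 gene (all genes: 8.35%), D. erecta in 4 (all genes: 11.1%), D. ananassae in 4 (all genes: 13%) and D. virilis in 5 (all genes: 14.5%). The 4 of D. ananassae, namely unc-13, tipE, qvr and Rdl, had the larger rise there, and 2 genes passed without the shallower p8 library and 8 without the deeper one. In D. erecta without its shallower 3L library 2 genes differed. The single gene of D. sechellia, qvr with a smaller rise (-2.27 ± 0.60), did not pass without its shallower 3L or p8 library, and 2 or 3 genes passed without each of 7 libraries of other species. In D. virilis without the deeper 3L library 1 gene differed, and without either p8 library 2.

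The level reached at p40 relative to AA set the species in an order. The median log2 ratio of p40 over AA was -0.35 over 30 genes in D. sechellia, -1.06 over 31 in D. erecta, -1.40 over 31 in D. ananassae, -1.46 over 25 in D. simulans and -1.72 over 32 in D. virilis. Over the 4 pairings of a p40 with an AA library it ran from -0.53 to -0.26 in D. sechellia, -1.21 to -0.93 in D. erecta, -1.71 to -1.11 in D. ananassae, -1.89 to -1.33 in D. simulans and -2.13 to -1.32 in D. virilis. The range of D. sechellia overlapped with no other, while those of D. ananassae, D. simulans and D. virilis overlapped with each other, and that of D. erecta overlapped with that of D. ananassae. The D. melanogaster means gave -1.73 over 33 genes. Over the 25 genes measured in all species the medians were -0.40 for D. sechellia, -1.17 for D. erecta, -1.37 for D. ananassae, -1.46 for D. simulans and -1.77 for D. virilis. In D. sechellia 24 of 30 genes had at p40 at least 50% of their adult level, against 14 of 31 in D. erecta, 12 of 31 in D. ananassae, 7 of 25 in D. simulans, 7 of 32 in D. virilis and 6 of 33 in D. melanogaster. Genes with their highest mean at p40 numbered 8 for D. sechellia (elav, Syn, brp, Rim, cac, Shab, Shaw and Rdl), 3 for D. erecta, 3 for D. ananassae, 2 for D. virilis, 1 for D. simulans and 0 in D. melanogaster. D. virilis pupae were matched to the others by the look of the antenna and given a longer time, and how far stage matching enters this order was not tested. The sums of the 9 muscle markers at p40, given above, fell in nearly the same order, with D. simulans before D. ananassae, and their part in it was not tested. The 7 neuron markers, 4 of which belong to the set, summed to 25400 to 26000 at p40, against 15300 to 15400 in AA, in D. sechellia. In D. virilis they summed to 26200 to 28900 at p40, against 16300 to 20500 in AA, and in D. erecta they were also higher at p40. They were lower at p40 in D. simulans, where brp was at 0, with 14100 to 16100 against 18600 to 20600 in AA. In D. ananassae they were lower at p40 too, with 32500 to 37900 against 40800 to 41900 in AA. Nrg, a cell adhesion gene that other cells also express, made up most of the p40 sums of D. sechellia and D. virilis. Its mean was 14700 in D. sechellia and 19100 in D. virilis at p40, against 4730 and 5310 in AA.

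**Figure D5:**
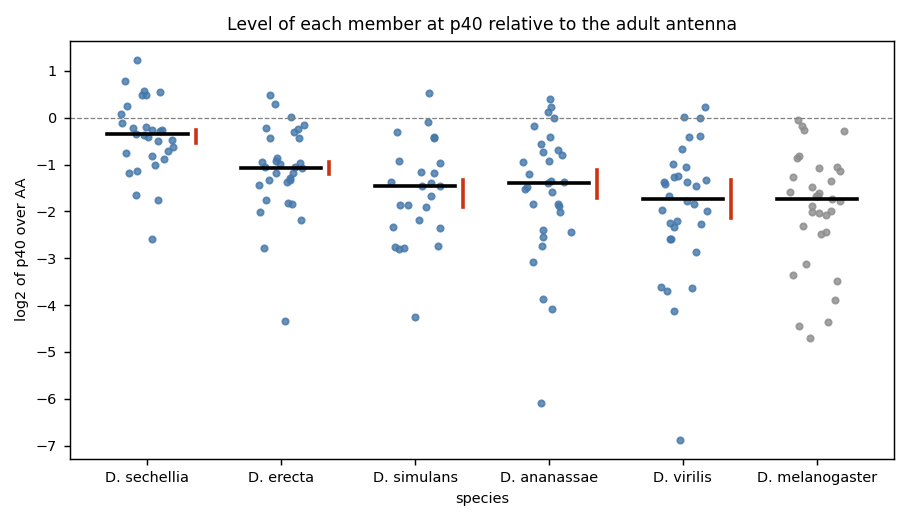
Log2 ratio of the p40 mean over the AA mean for each gene of the set (points), with the median over genes (black bar) and the range of that median over the 4 pairings of single p40 and AA libraries (red line; none for D. melanogaster, shown in grey, which has means alone). The dashed line marks equal levels, and the median falls in order at -0.35 for D. sechellia, -1.06 for D. erecta and -1.72 in D. virilis.

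Levels between species also reflect the gene model to which each species was mapped. At p40, D. sechellia differed from the mean of the other 4 species in 15 of 25 genes (all genes: 25.9%), 13 higher and 2 lower, with slo (3.16 ± 0.38), eag (3.37 ± 0.37) and Nckx30C (2.87 ± 0.36) the farthest above, and futsch (-1.47 ± 0.18) and qvr (-1.32 ± 0.42) below. D. erecta differed in 9 (all genes: 25.5%), all 9 higher, D. simulans in 14 (all genes: 22.6%), D. ananassae in 15 (all genes: 26.9%) and D. virilis in 9 (all genes: 38.8%). In AA, D. sechellia differed in 8 of 22 genes (all genes: 22.4%), 4 higher and 4 lower, and in 5 without its deeper adult library. D. erecta differed there in 6 (all genes: 26.4%), D. simulans in 10 (all genes: 25.3%), D. ananassae in 12 (all genes: 33.9%) and D. virilis in 4 (all genes: 33.8%). A gene that was low in 1 species at all stages shows the limit of such comparisons. In D. simulans, shi had 158 at 3L, then 186 at p8, 252 at p40 and 493 in AA on average, against 2682 at 3L, then 3039.6 at p8, 4431 at p40 and 5278 in AA in D. sechellia, and Atpalpha had 815 at 3L, then 807 at p8, 3872 at p40 and 10630.1 in AA, against 14325 at 3L, then 11290.0 at p8, 46220.5 at p40 and 55618 in AA.

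Other genes of the same functions were taken from lists that hold none of the 33, except that Nckx30C is in that of ion exchange. They were counted in the average of 5 species, where 20.2%, 23.5% and 21.1% of all genes rose and 3.79%, 11.2% and 19.9% fell at the 3 steps. The list of calcium channels also holds the sodium leak channel na, with unc79, unc80 and NaCP60E. This list, further potassium channels and further genes of the active zone and vesicle fusion rose in larger shares than all genes at each step. Endocytosis genes did so at none. Of 7 genes of the calcium channel list tested in all 5 species, 5, 6 and 3 rose at the 3 steps and 0 fell. Among them, na rose by 2.16 and 3.10 log2 units at the first 2 steps, and Ca-alpha1D, an L-type channel, by 3.18 at the last. Of 11 further potassium channel genes, 4, 6 and 7 rose and 0, 0 and 1 fell. Irk2, an inward rectifier, rose by 5.27 log2 units at the last step, and Shawl, a relative of Shaw, rose by 4.32 at the second and fell by 1.11 at the last. Of 15 further genes of the active zone and vesicle fusion, 8 rose at each step and 0, 0 and 1 fell, with Syngr, the vesicle protein synaptogyrin, at 6.88 log2 units at the last step and CadN, an adhesion protein of axons, falling by 1.53. Of 13 transmitter receptor genes, 9, 8 and 4 rose and 0, 0 and 4 fell, as many falls as rises at the last step. nAChRalpha5, a nicotinic receptor subunit, rose by 5.30 log2 units at the second step and fell by 2.99 at the last, while GABA-B-R1 rose by 3.73 at the last.

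Of 9 genes of transmitter synthesis and vesicular transport, 3, 3 and 5 rose and 0, 2 and 1 fell, the falls of the second step being a larger share than that of all genes. Vmat, the vesicular monoamine transporter, rose by 5.33 log2 units at the last step. ple and Ddc, enzymes of dopamine synthesis that also serve cuticle tanning, rose at the first step by 2.03 and 1.42 log2 units and fell at the second by 2.47 and 1.67, and ple rose again by 4.85 at the last. Of the vesicle endocytosis genes tested, 1 of 8, 2 of 9 and 0 of 8 rose, each below the share of all genes, and 0 fell. Of the genes of the sodium pump and ion exchange, with Nckx30C of the set counted among them, 1 of 6, 5 of 7 and 4 of 6 rose. The first of these was below the share of all genes, and 0 fell. The exchanger Calx rose by 3.80 and 2.99 log2 units at the last 2 steps. The neuronal RNA-binding protein genes fne and Rbp9, relatives of elav outside the set, were higher at p40 than at p8 in each species. In D. sechellia, fne had 26.8 and 53.0 at 3L, 151 and 115 at p8, 2470.0 and 2100.0 at p40 and 896 and 810.0 in AA, and it too was higher at p40 than in AA.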

How the data were processed

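Gene expression was measured by RNA-seq in 40 libraries of 5 species and 4 stages. RNA was extracted from pooled discs or antennae, made into libraries with the TruSeq Stranded mRNA kit and sequenced as paired-end reads, each pool giving 1 library of a species and stage. The authors called bases with CASAVA 1.8, trimmed adaptors, mapped reads to the FlyBase transcriptome of each species with BWA 0.7.8, named transcripts by orthology, kept the highest expressed transcript where a gene had several orthologs, and normalized counts within each stage with DESeq2. The deposited values are the authors' mean normalized counts per species and stage, a signal that is not divided by transcript length, and a listed 0 can be a missing ortholog.

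The read counts of the 2 libraries behind each mean were recovered, since each mean is the average of 2 whole numbers divided by their size factors. Recovery gave a unique pair for 97.2 to 99.2% of values at 3L, 98.4 to 99.7% in AA and 100.0% at p8 and p40, and values without a unique pair were left out. The values left out were high, none under 3539 at 3L or 10008 in AA before scaling. The resolved values held 54.6 to 76.2% of a column total at 3L and 62.8 to 82.1% in AA, so many highly expressed genes are missing there. On simulated data 99.2% of 23777 values were resolved at the precision of the 3L and AA tables, all of them rightly. The recovered libraries bear no sample names, so they are called the deeper and the shallower one. Depth was 17767648 to 26658372 reads at p8 and 11738398 to 23729891 at p40, and is unknown at 3L and AA. The 4 columns of D. melanogaster belong to none of these samples and were used as the authors' means alone.

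Values were put on 1 scale by a factor per stage, computed over 4676 genes above 50 in every column. Genes with a mean of at least 10 were tested (19068 genes) with limma 3.58.1 (trend, empirical Bayes) on log2(scaled count + 1) in R 4.3.3, with Benjamini-Hochberg adjustment over all genes in the fit, and calls needed an adjusted p under 0.05 and a 2-fold change. Libraries were grouped by species and stage from the labels. The contrasts were successive stages, averaged over species and within each, the difference of a species' step from the mean step of the other 4, and the difference of its level at p40 and AA from their mean. Data were simulated with the size factors of these libraries, the average of each gene at p8 for all groups, and 1 fixed dispersion not estimated from these libraries. There, 190 of 190 genes changed 4-fold between p8 and p40 in all species were called and 0 of 14111 unchanged genes. In the step of D. sechellia alone 184 of the 190 and 12 of the 14111 were called. Some pairs of the real libraries lay far apart, as given above, so these counts hold for the simulated spread only. With 2 libraries per group, p-values measure the spread between these libraries, which the study describes as biological replicates. Named genes are the 33 members. The members and the lists of other genes and markers were chosen with earlier results of these data known. Alternatives were other scalings, pseudocounts and filters, calls by adjusted p alone, voom weights, fits of single species, and leaving out libraries or species. Sequences were not used here.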

Additional observations from a re-analysis of the deposited data

Results flagged for a closer look

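Between species, 57 differences in a step, each of 1 species from the mean of the other 4, passed limma's test of the difference itself and were at least 2-fold. They are 16.1% of 355 tests, beside 16.4% for all genes over the same 15 comparisons, so the set as a whole differed between species about as often as all genes did. Values are differences in log2 change, positive where the species named rose more or fell less. They share libraries, since each species is also part of the mean for the others, and their causes were not tested.

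At the step from 3L to p8, D. sechellia differed in qvr (-2.27). D. erecta differed in Ih (3.07), cpx (1.87), unc-13 (1.53) and Shal (1.11). D. simulans differed in nSyb (-3.16), Rdl (-2.92), Shal (-1.52), stnA (-1.49), Syt1 (-1.46) and unc-13 (-1.36). D. ananassae differed in Rdl (2.42), qvr (1.71), unc-13 (1.68) and tipE (1.35). D. virilis differed in stnB (-2.19), stnA (-1.53), cpx (-1.49), unc-13 (-1.47) and Syt1 (1.43). unc-13, the priming factor, was on the list of 4 species, higher than the mean step in D. erecta and D. ananassae and lower in D. simulans and D. virilis.

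At the step from p8 to p40, D. sechellia differed in eag (4.31), slo (1.66), tipE (-1.69) and Shal (-1.59). D. erecta differed in Rdl (2.22), Shal (1.84), tipE (1.54) and eag (-1.88). D. simulans differed in nSyb (3.00), eag (1.79) and Rdl (1.79). D. ananassae differed in Rdl (-2.43), Shab (-2.28), unc-13 (-1.24) and Shal (1.56). D. virilis differed in eag (-3.30), Rdl (-2.96), Shal (-2.52), Nckx30C (-2.33), qvr (-1.99), cpx (-1.75) and Sh (-1.68). The nSyb value in D. simulans rests on p8 libraries of 68.8 and 5.64 scaled counts, which also enter its value at the step before.

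At the step from p40 to AA, D. sechellia differed in Rim (-2.20), eag (-2.13), cpx (-1.80), slo (-1.66), qvr (-1.56), Nckx30C (-1.51) and Syt1 (-1.34). D. simulans differed in Syt1 (1.08). D. ananassae differed in Nckx30C (1.51) and Shal (1.36). D. virilis differed in eag (1.87), slo (1.49), Nckx30C (1.27), tipE (1.15) and Shal (-1.75).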

How the results depend on the processing

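Between p8 and p40 the count of genes that rose in the average of 5 species was 22 under every alternative but calls by adjusted p alone (24) and the average without D. sechellia (21). Scaling by column totals moved the first step by -0.52 log2 units on average, which turned Rop (-0.35), shi (-0.26) and Shal (-0.28) below 0, none of them called, gave 3 rises and 3 falls in D. simulans, left 2 genes with a different last step in D. virilis, and gave medians of p40 over AA of -0.49 in D. sechellia and -1.73 in D. melanogaster. A factor for each column gave 1 fall at the first step in D. simulans, 5 and 0 genes with a different second and last step there, and a median of -1.79 in D. melanogaster. A pseudocount of 10 gave a different first step in 4 genes of D. sechellia, a different second step in 7 of D. sechellia and 8 of D. erecta, a different last step in 11 of D. sechellia, 1 of D. erecta and 2 of D. simulans, and a median of -1.73 in D. melanogaster. Calls by adjusted p alone gave 1 fall each at the first step in D. simulans and D. ananassae and at the last step in D. sechellia and the 5-species average, a different last step in 2 genes of D. erecta, 2 of D. simulans and 5 of D. ananassae, and different levels in 14 genes of D. virilis at p40 and in 12 of D. erecta and 7 of D. virilis in AA. With voom weights 3 genes rose at the first step in D. simulans and 1 fell at the last in D. sechellia, the first step differed in 0 genes of D. sechellia, D. erecta and D. ananassae, 2 of D. simulans and 1 of D. virilis, the second in 1 of D. simulans and 2 of D. ananassae, and the last in 12 of D. sechellia, 1 of D. erecta, 2 of D. simulans and 1 of D. ananassae. Fitted alone, D. simulans had 1 fall at the first step. Without D. virilis, the second step differed in 1 gene of D. simulans and levels in AA in 11 of D. erecta. Without D. sechellia, an alternative chosen after seeing the data, the first step differed in 3 genes of D. virilis, the second in 5 of D. simulans, and the last in 2 of D. erecta, 1 of D. ananassae and 3 of D. virilis. The cause of these moves was not tested.

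When libraries were left out in turn, and the shallower D. sechellia adult and D. ananassae p8 libraries also together (chosen after seeing the data), rises at the first step numbered 3 to 8 in D. simulans, with 0 to 1 falls, and 12 to 20 in D. ananassae. D. ananassae had 0 to 1 falls at the second step, and D. sechellia 3 to 6 rises at the last. Genes with a different first step numbered 0 to 3 in D. sechellia, 2 to 5 in D. erecta, 3 to 10 in D. simulans, 1 to 8 in D. ananassae and 1 to 6 in D. virilis. With a different second step there were 3 to 7 in D. erecta, 0 to 5 in D. simulans and 2 to 5 in D. ananassae. With a different last step there were 3 to 9 in D. sechellia, 0 to 2 in D. erecta, 0 to 2 in D. simulans, 1 to 3 in D. ananassae and 1 to 6 in D. virilis, and levels in AA differed in 5 to 8 genes of D. sechellia. Shaw, with a mean last step of 0.13 that was not called, ran from -0.10 to 0.36, with -0.03 without the deeper D. simulans p40 library and -0.10 without the shallower D. simulans adult library. Where 1 library of a group was left, it was taken to vary like the other groups. No paired analysis was possible because the recovered libraries carry no replicate numbers. Values near 0 at 3L and p8 rest on few reads.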
